A study of Mus musculus with 4 samples.

Results

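Steroid hormones of the testis are made from cholesterol by a short chain of proteins. In cultured mouse spermatogonial stem cells, 10 genes of that chain and its control were followed after FGF2 withdrawal with an FGF receptor inhibitor. They were picked by gene name from the pathway, with earlier results of these data known: Star, Cyp11a1, Hsd3b1, Cyp17a1, Hsd17b3, Hsd17b1, Cyp19a1, Nr5a1, Lhcgr and Insl3. Of the 10 genes, 9 had probes of their own on the array, 14 probes in all out of 41174. Of these 9 genes, 8 had a probe whose signal in 1 of the channels was marked well above background on 3 or 4 of the 4 arrays, and they stood among 18454 genes tested.

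The cells came from C57/BL6 x DBA/2 F1 mice at day 5 and are cultured germ-line stem cells, the cells that found and renew the male germ line. Control cultures stayed in normal medium, a serum-free mix that holds GDNF (40 ng/ml) beside FGF2 (5 ng/ml). Treated cultures, called -F+S, were passaged into medium lacking FGF2 and holding SU5402, an inhibitor of FGF receptors, and the labels give 12 h for them. Each of 4 Agilent 2-colour arrays carried 1 treated sample in green (Cy3) and 1 control sample in red (Cy5), 4 biological replicates of each per the design text. The dye orientation was never swapped, so a dye effect of a gene and its response to the treatment cannot be told apart. The labels do not say what other cells the cultures held, and how separate the replicate cultures were is not given, so p-values measure the spread between these 4 arrays.

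In the testis, steroids are made mainly by Leydig cells, which lie between the seminiferous tubules and answer luteinizing hormone through its receptor, Lhcgr. StAR moves cholesterol into the mitochondrion, where CYP11A1 cuts its side chain to give pregnenolone, and HSD3B1 turns pregnenolone into progesterone. CYP17A1 then gives androgens, HSD17B3 makes testosterone, HSD17B1 and the aromatase CYP19A1 lead to estrogens, and the nuclear receptor NR5A1 (steroidogenic factor) activates most of these genes.

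Genes of the early steps, from cholesterol entry to progesterone, rose after FGF2 withdrawal with SU5402, and Hsd3b1 rose most of all members, 8.94-fold. Cyp11a1 rose 3.18-fold and Star 2.08-fold, together with their regulator Nr5a1 (2.11-fold). Cyp17a1, the branch point to androgens, fell 1.27-fold. Hsd17b3, Hsd17b1 and Cyp19a1 were dim and higher by 2.09-fold, 1.53-fold and 1.49-fold, and no signal of the hormone receptor Lhcgr stood above background. By limma, 7 of the 8 measured members were higher and 1 was lower at an adjusted p under 0.05, where 68.4% of all genes were called, 37.5% higher and 30.9% lower. Of their 11 kept probes, 10 were higher and 1 lower, against 37.3% and 29.1% of all kept probes. Higher by at least 2-fold and called were 5 of the 8, against 11.7% of all genes. Of the 8, 3 (Hsd17b3, Hsd17b1 and Cyp19a1) passed the filter only through the treated channel, in which they are high, so the filter favoured a rise. Among the 11 kept probes, a dim Cyp11a1 probe also passed that way. The arrays measured RNA of whole cultures, so a different share of a cell type and a different amount of RNA per cell cannot be told apart.

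**Figure D1:**
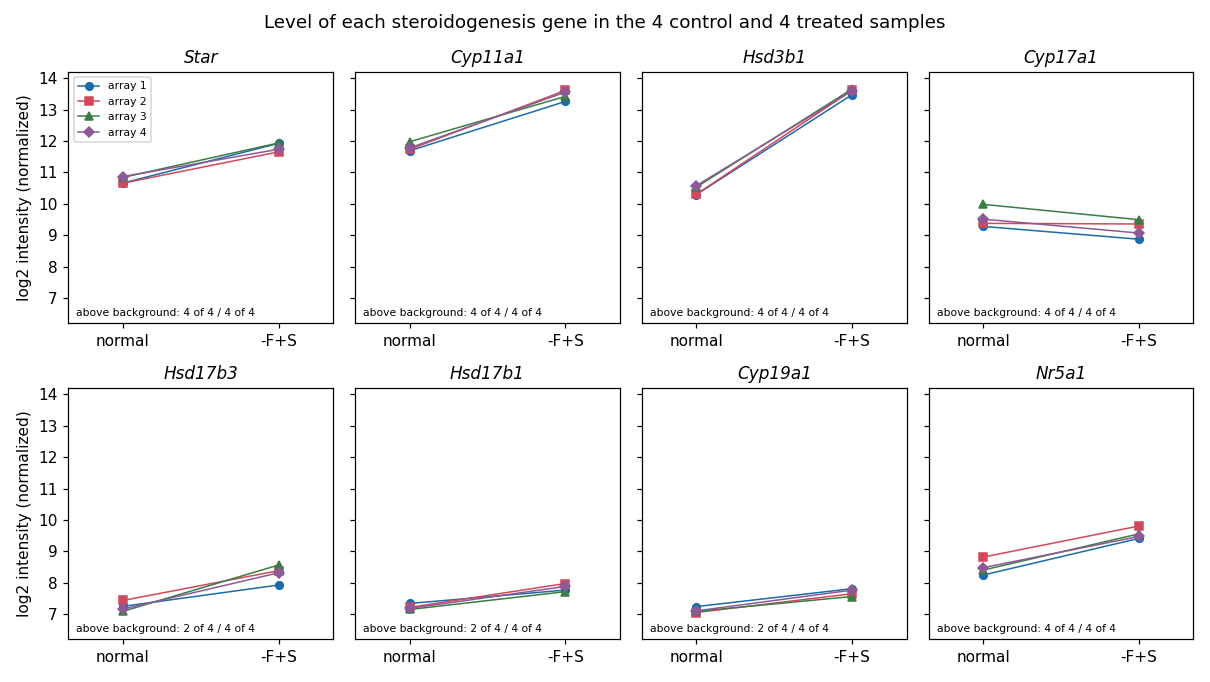
Normalized log2 intensity of the brightest measured probe of 8 steroidogenesis genes in normal culture and in -F+S, with 1 line per array joining its control and treated sample; the small text gives the arrays well above background (control / treated). Lines climb on all 4 arrays for every gene except Cyp17a1, whose lines slope down by 0.02 to 0.49.

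The data of the whole series are in short these. Between 25533 and 28496 probes per channel were well above background, and log2 ratios of different arrays correlated with a Pearson r of 0.907 to 0.948 across genes, which are not independent replicates. All 4 arrays sat on 1 slide in 1 scan. The median log2 ratio of all genes was 0.023, the 5th percentile was -0.74 and the 95th 1.55, and ratios varied between arrays with a median SD of 0.15. Levels are log2 intensities after normalization. No fold or test here sets a probe's level against that of another, although brightness picked the probe that stands for a gene and the sums over marker lists add different probes. The offset added to the background correction shrinks the ratios of dim probes.

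Some probes bridge an exon junction, since their 60 bases cover a longer stretch of the genome, and these are shown because they read spliced RNA and cannot be matched whole by genomic DNA. The array file places the brighter Cyp11a1 probe at 57873365 to 57873902 and the other at 57874074 to 57874544 on chromosome 9 (mm9); the first leaves out 478 bases of intron. The Cyp17a1 probe spans 46742594 to 46743207 on chromosome 19, with 554 intron bases, and the Hsd17b3 probe 64159943 to 64160741 on chromosome 13, with 739. They read, 5′ to 3′:
Cyp11a1, brighter probe: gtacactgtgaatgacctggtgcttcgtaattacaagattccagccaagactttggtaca
Cyp11a1, other junction probe: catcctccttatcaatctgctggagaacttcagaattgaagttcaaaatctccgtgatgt
Cyp17a1: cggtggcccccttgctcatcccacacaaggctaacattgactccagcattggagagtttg
Hsd17b3: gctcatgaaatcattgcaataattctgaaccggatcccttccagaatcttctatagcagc
Each of these 4 oligos holds at least 1 reading frame without a stop codon. The probes of Star, Hsd3b1, Hsd17b1, Nr5a1 and Lhcgr, a Cyp11a1 probe described below as named through a clone and the probe that stands for Cyp19a1 each lie in 1 unbroken stretch of 60 bases.

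Star encodes the protein that carries cholesterol to the inner mitochondrial membrane, the step that limits the rate of steroid synthesis. Its brighter probe (chromosome 8, 26924735 to 26924794, mm9) had log2 levels of 10.66, 10.66, 10.84 and 10.87 in the control samples of arrays 1 to 4 and of 11.92, 11.65, 11.94 and 11.74 in the treated samples. Every treated sample lay above every control sample. The log2 ratio was 1.06 (SE 0.080, n = 4, limma adjusted p = 3.1e-06), and it was 0.87 to 1.27 on the single arrays. A dimmer probe of Star (26925460 to 26925519) gave 0.81 (SE 0.093, limma adjusted p = 5.36e-05 over all kept probes), with array values of 0.54 to 1.07 that overlap those of the brighter probe.

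Cyp11a1 encodes the cytochrome P450 that starts steroid synthesis by cleaving the side chain of cholesterol. Its brighter probe had control log2 levels of 11.69, 11.73, 11.98 and 11.78 and treated levels of 13.26, 13.61, 13.42 and 13.56. The groups stood more than 1 log2 unit apart, with no overlap. The log2 ratio was 1.67 (SE 0.086, n = 4, limma adjusted p = 2.36e-07), and the other junction probe gave 1.75 (SE 0.075, limma adjusted p = 1e-07 over all kept probes). The 2 junction probes thus differed by less than the spread of their single arrays, 1.44 to 1.88 and 1.62 to 1.90. Another probe carries the name Cyp11a1 through a clone from adrenal gland that the file calls unclassifiable, at 57869600 to 57869659 on the same chromosome. It was well above background in all 4 treated samples and in 0 of the 4 control samples. It thus passed the filter through the treated channel alone, so the filter favoured its rise. It was at least 1.56-fold higher in treated cells (measured means of 7.28 against 6.48 on the log2 scale, limma adjusted p = 2.4e-05 over all kept probes), where the control value is taken at no less than the lowest signal called above background.

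Hsd3b1 encodes the dehydrogenase and isomerase that makes progesterone from pregnenolone in Leydig cells and the adrenal. Control levels were 10.29, 10.30, 10.53 and 10.58 on the log2 scale and treated levels 13.48, 13.61, 13.66 and 13.60. The treated samples were tightly grouped (SD 0.077) and lay far above the controls (SD 0.15). The log2 ratio was 3.16 (SE 0.073, n = 4, limma adjusted p = 6.8e-09), which placed Hsd3b1 at rank 29 of 18454 genes by size of rise. Its only probe (chromosome 3, 98656330 to 98656389, mm9) is listed by the file with RefSeq transcripts of Hsd3b1 alone. Related Hsd3b genes lie in the same family, and whether their RNA also binds this probe was not tested.

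By the closeness of the 4 array ratios, the genes most like Hsd3b1 among 15607 other named genes were Ccdc80, a secreted matrix protein (log2 ratio 3.15, root mean square difference 0.036), Cst12, a cystatin (3.17, difference 0.052), and Slc52a3, a riboflavin transporter (3.17, difference 0.057). For Cyp11a1 they were Lama4, a laminin chain (1.66, difference 0.050), Adamts12, a matrix protease (1.69, difference 0.066), and Hoxd10, a homeobox factor (1.67, difference 0.070). The measure rests on 4 ratios per gene, all of the same comparison.

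Cyp17a1 encodes the enzyme whose hydroxylase and lyase steps lead from progesterone to androgens, and it alone of the measured members was lower. Control log2 levels were 9.28, 9.38, 9.98 and 9.51 and treated levels 8.87, 9.36, 9.49 and 9.07. The groups overlapped when all 8 samples were set side by side, while within each array the treated sample was the lower one. The log2 ratio was -0.34 (SE 0.090, n = 4, limma adjusted p = 0.00784), with -0.41, -0.02, -0.49 and -0.44 on arrays 1 to 4. The highest of these 4 ratios, -0.02, lay below the lowest ratio of any other measured member, 0.43 for Hsd17b1. The call was lost when arrays were median-centred without loess (-0.27, limma adjusted p = 0.116). The size was -0.57 with the scanner's own ratio, more than 1.5 times the reported value. The median of all genes was -0.12 with that ratio, against 0.023 as reported.

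Hsd17b3 encodes the testis enzyme that makes testosterone from androstenedione. Its junction probe was well above background in 4 of 4 treated samples and in 2 of 4 controls. Control log2 levels were 7.25, 7.44, 7.09 and 7.16 and treated levels 7.93, 8.39, 8.57 and 8.32. The treated samples were all higher, and array 3 differed most. The log2 ratio was 1.07 (SE 0.12, n = 4, limma adjusted p = 3.59e-05), with an SD of 0.34 between arrays, the widest of the 8 genes. The scanner's own ratio, without the offset, gave 1.76.

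Hsd17b1, the dehydrogenase that forms estradiol in the ovary, and Cyp19a1, the aromatase that turns androgens into estrogens, were the dimmest measured members. Hsd17b1 had control levels of 7.15 to 7.34 and treated levels of 7.72 to 7.98 on the log2 scale (ratio 0.61, SE 0.077, n = 4, limma adjusted p = 9.05e-05). The probe standing for Cyp19a1 had control levels of 7.06 to 7.25 and treated levels of 7.57 to 7.82 (ratio 0.58, SE 0.068, n = 4, limma adjusted p = 6.15e-05). Both were well above background in 4 of 4 treated and 2 of 4 control samples, and in neither did the groups overlap. With the scanner's own ratio these genes were at 1.04 and 1.12. A junction probe of Cyp19a1 was above background in 0 of 8 samples, so the rise rests on the other probe, at 54013778 to 54013837 on chromosome 9 (mm9).

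Nr5a1 encodes the orphan nuclear receptor that switches on steroidogenic genes in Leydig, Sertoli and adrenal cells. Control log2 levels were 8.25, 8.82, 8.41 and 8.48 and treated levels 9.42, 9.81, 9.56 and 9.48. No treated sample overlapped the controls, and array 2 was highest in both channels. The log2 ratio was 1.08 (SE 0.070, n = 4, limma adjusted p = 1.1e-06), and it stayed within 0.99 to 1.17 on the 4 arrays. A probe designed on the ELP transcript, an alternative product of the same gene, was above background in 0 of 8 samples.

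Lhcgr, the receptor through which luteinizing hormone drives Leydig cells, was above background in 0 of 8 samples, with log2 levels of 6.13 to 6.32 in both groups. At this signal no difference was detectable. Insl3, the insulin-like hormone of Leydig cells that guides testis descent, had no probe of its own. Probes of Jak3, a kinase of cytokine receptors in blood cells, lie where the file lists transcripts of both Jak3 and Insl3 (chromosome 8, 74214085 to 74214144 and 74214308 to 74214367, mm9). These 2 probes had log2 ratios of 1.42 (0.068 SE) and 0.71 (0.077 SE), and the files do not say which gene gave the signal. The older alias Rlf of Insl3 belongs to another gene on this array, and its 3 probes were not used.

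**Figure D2:**
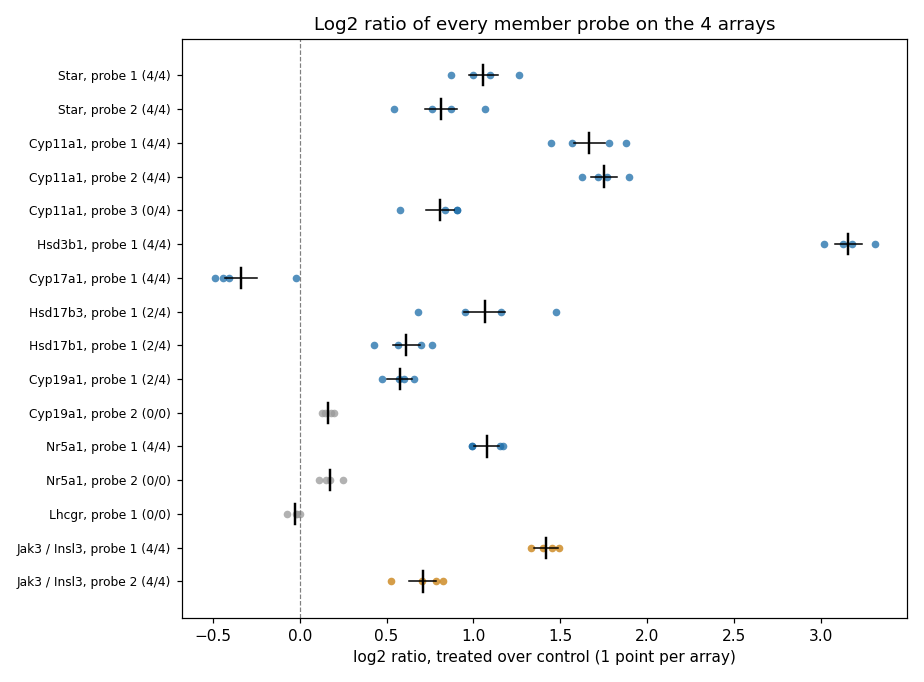
Log2 ratio of treated over control for every probe of the members, 1 point per array; vertical bars are means, horizontal bars the SE of the limma fit over kept probes, and the numbers in brackets count control and treated samples well above background out of 4. Hsd3b1 stands alone at 3.02 to 3.31, Cyp17a1 is the only gene left of 0 among measured probes (blue), and grey probes were at background in both groups; orange probes are shared by Jak3 and Insl3.

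Ordered by ratio, only Hsd3b1 at the top and Cyp17a1 at the bottom were clear of all other measured members. Hsd3b1 (lowest array 3.02) was clear of Cyp11a1 (highest 1.88). Cyp11a1 (lowest 1.44) was clear of Nr5a1 (highest 1.17) but not of Hsd17b3 (highest 1.475). Nr5a1, Hsd17b3 and Star overlapped and were not ordered by these arrays, and neither were Hsd17b1 and Cyp19a1. Hsd17b3 (lowest 0.68) also overlapped Hsd17b1 (highest 0.76). The order depended on the processing. With the scanner's own ratio, without the offset, Hsd17b3 (1.76) stood above Cyp11a1, and Cyp19a1 (1.12) and Hsd17b1 (1.04) stood above Star. No test was made between neighbours. Of all genes, 99.8% had a lower ratio than Hsd3b1, 95.8% than Cyp11a1, 89.4% than Nr5a1 and 20.7% than Cyp17a1. Treated samples were all above control samples for 7 of the 8 genes, against 34.1% of all genes, and all below them for 0 of the 8, against 27.1%. Hsd17b3, Hsd17b1 and Cyp19a1 are among these 7 and passed the filter through the treated channel alone, so the filter favoured their place there.

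**Figure D3:**
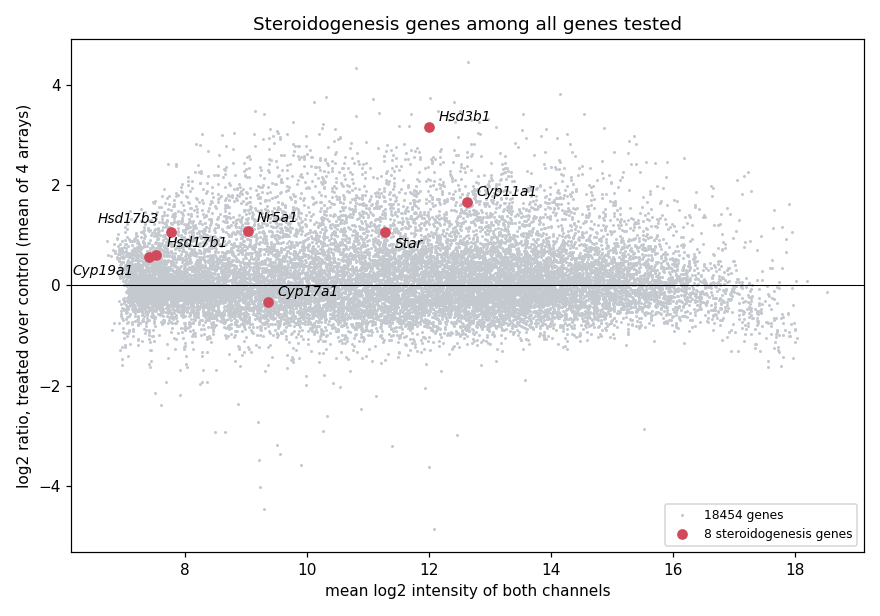
Log2 ratio of treated over control (mean of 4 arrays) against mean log2 intensity for 18454 genes, with the 8 measured members in red. Hsd3b1 and Cyp11a1 lie in the upper part of the cloud at middling brightness, the estrogen-forming genes at its dim edge, and Cyp17a1 just below 0.

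Promoters were read because members that move together may share sequence. Only 6 of the 10 genes had promoters in the RefSeq set (GRCm38.p6), 9 start sites in all: Hsd3b1, Cyp11a1, Cyp19a1, Hsd17b3, Lhcgr and Insl3. Of these, Lhcgr and Insl3 had no measured ratio. The promoters of Star, Cyp17a1, Hsd17b1 and Nr5a1 were not held, so nothing below speaks of them. In the 250 bases before the start, neither the NR5A1 site CAAGGTCA nor its core AAGGTCA occurred on either strand in any of the 9, where 1.33% and 4.08% of 32851 promoters hold them. The core is contained in the longer site and in the NR4A site AAAGGTCA, which was also absent (1.34% of promoters hold it), as was the cAMP response element TGACGTCA (1.55%). The GATA form TGATAA was found in none of the 9 (7.94%), and AGATAA in that of Hsd3b1 (9.99%), from 134 to 129 bases before the start on the other strand. The TATA box letters TATAAA were found at 2 of the 3 Cyp19a1 starts (12.4% of promoters). Before 1 start they lay 29 to 24 bases away, and 31 to 26 on the opposite strand. Before another they lay on the opposite strand alone, 157 to 152 and 143 to 138 bases away. No match says only that these letters are not in the window. The Hsd3b1 window, the gene with the largest rise, lies at chr3:98859795-98860044 (minus strand), with the GATA letters in capitals. The start of Cyp11a1 whose window lies at chr9:58014702-58014951 (plus strand) holds none of the motifs. They read:
Hsd3b1: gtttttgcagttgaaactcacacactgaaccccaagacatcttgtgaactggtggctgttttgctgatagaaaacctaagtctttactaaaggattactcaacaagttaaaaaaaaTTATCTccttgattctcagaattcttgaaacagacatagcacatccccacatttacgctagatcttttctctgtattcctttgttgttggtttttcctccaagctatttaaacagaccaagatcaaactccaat
Cyp11a1: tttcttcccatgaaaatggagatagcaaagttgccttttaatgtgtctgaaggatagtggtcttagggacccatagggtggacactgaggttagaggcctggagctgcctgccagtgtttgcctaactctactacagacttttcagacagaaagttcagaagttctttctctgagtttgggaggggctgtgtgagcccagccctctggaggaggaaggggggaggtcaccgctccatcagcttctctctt

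Of 33 other listed enzymes of steroid metabolism and their redox partners, 24 were measured, and 17 were higher, 3 lower and 4 not called, with a median log2 ratio of 0.64. With no filter on dim probes the median was 0.28 (18 higher, 3 lower), and without loess 1 gene was lower. As reported, 37.5% of all genes were called higher and 30.9% lower. Akr1c14, Hsd3b6 and Hsd3b2 passed the filter through the treated channel alone. Akr1b7, an aldose reductase of steroidogenic cells, was at 3.26 (SE 0.073), Hsd11b1, which activates glucocorticoids, at 1.92, and Cyp7b1, an oxysterol hydroxylase, at 1.88. Hsd3b7, of bile acid synthesis, was at 1.71 and Hsd17b11 at 1.52. Akr1c14, a 3-alpha-hydroxysteroid dehydrogenase, was above background in 0 of 4 controls and at least 8.12-fold higher (log2 means 9.80 against 6.77).

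The electron carriers that serve CYP11A1 and CYP17A1 were unequal. Fdx1, the ferredoxin that feeds CYP11A1, was higher by 0.78 and Cyb5a, the cytochrome b5 that aids the lyase step of CYP17A1, by 1.37. Fdxr, the ferredoxin reductase, was at 0.28 (limma adjusted p = 0.00589). That call was lost with the scanner's own ratio (0.11, limma adjusted p = 0.228), with median-centred processed signals (0.16, limma adjusted p = 0.361) and without loess (0.29, limma adjusted p = 0.124). Por, the reductase of CYP17A1 and CYP19A1, was at 0.15 (limma adjusted p = 0.108) and at -0.10 without loess. These carriers were chosen after their values were seen.

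Relatives of Hsd3b1 on the array moved differently. Hsd3b6, an isoform of adult Leydig cells, and Hsd3b2 were above background in 4 of 4 treated and 0 of 4 control samples, and were at least 2.64-fold and 1.67-fold higher (log2 means 8.19 against 6.74, and 7.47 against 6.56; limma adjusted p = 1.61e-06 and 2.41e-05). Hsd3b4 was at -0.18 (limma adjusted p = 0.046), a call lost without replicate 1, 2, 3 or 4 in turn (-0.21 to -0.14), without loess (-0.13) and when adjusted over every kept probe (limma adjusted p = 0.0542). Hsd3b3 was not above background in any sample. Hsd3b2 and Hsd3b6 were chosen after their values were seen, and RNA of near-identical copies can mix on probes of this family.

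Among steroid enzymes, Akr1c18 fell most. It encodes the 20-alpha-hydroxysteroid dehydrogenase that inactivates progesterone, and its log2 ratio was -1.62 (SE 0.10, limma adjusted p = 8.4e-07; -2.80 with the scanner's own ratio). It was above background in 4 of 4 control and 3 of 4 treated samples. Srd5a1, a 5-alpha-reductase, was at -0.26, and its call was lost without loess (-0.21, limma adjusted p = 0.278). Srd5a2, Hsd17b2 and the adrenal enzymes Cyp21a1 and Cyp11b2 were above background in no sample.

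Of 20 listed genes of cholesterol uptake, storage, export and transport, all were measured, with 14 higher, 3 lower and 3 not called, and a median log2 ratio of 0.70. The lower count was 1 without loess and 5 with the scanner's own ratio, and second brightest probes gave a median of 0.43 with 6 higher and 1 lower. Over all genes, as reported, 37.5% were called higher and 30.9% lower. Soat1, which stores cholesterol as esters, was at 1.48 (its second probe at 0.56), the lysosomal lipase Lipa at 1.43, and the exporter Abca1 at 1.22. Vdac1, an outer membrane channel of mitochondria, was at 1.20, the lysosomal cholesterol carrier Npc2 at 0.91, and the carrier Stard4 at 0.96 with a second probe at 0.12 (limma adjusted p = 0.208). Scarb1, the receptor for high-density lipoprotein, and Tspo, a mitochondrial outer membrane protein, were at 0.75 and 0.63, and were picked once their values were known. Lipe, the hormone-sensitive lipase that frees cholesterol from esters, fell by 0.43. Npc1 was at -0.25 and Stard5 at -0.29, calls that were lost without loess (-0.16 and -0.21; limma adjusted p = 0.4 and 0.271); that of Npc1 was also lost without replicate 1 (-0.22), and that of Stard5 without replicate 3 (-0.20) and on its second probe (-0.02).

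Of 29 listed transcription factors of steroidogenic and gonadal somatic cells, 28 were measured, with 18 higher, 4 lower and 6 not called, and a median log2 ratio of 0.79. Without loess 1 of them was lower. Shares over all genes, as reported, were 37.5% higher and 30.9% lower. Nr2f1, Nr0b2 and Nr0b1 passed the filter through the treated channel alone, so the filter favoured their rise. Tcf21, a factor of gonadal stroma, was at 2.93, Lhx9 and Wt1, which are needed to form the gonad, at 2.43 and 2.37, Nr2f2 (COUP-TFII) of Leydig progenitors at 2.03 and Gata6 at 1.83. Gata4, a partner of NR5A1, was at 0.96, and Nr0b1 (DAX1), its repressor, at 0.52. Nr4a1, which luteinizing hormone induces in Leydig cells, was at -0.08 (limma adjusted p = 0.326). With the scanner's own ratio it was at -0.21 (limma adjusted p = 0.0278), where the median of all genes was -0.12. These last 3 genes were chosen after their values were seen. Nr5a2, the closest relative of Nr5a1, went the other way at -0.42, although its call was lost without loess (-0.33, limma adjusted p = 0.109). Cbx2, a Polycomb protein upstream of Nr5a1 in the gonad, fell by 0.66 (its second probe was at -0.21, limma adjusted p = 0.0687). Foxl2, the ovarian factor, was at -0.24 and Hes1, a Notch target, at -0.22. Both calls were lost without loess (-0.22 and -0.13; limma adjusted p = 0.193 and 0.521), and that of Hes1 also without replicate 1, 3 or 4 in turn (-0.25 to -0.13), with no filter on dim probes (limma adjusted p = 0.0521) and over every kept probe (limma adjusted p = 0.0516).

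Of 32 listed receptors and cAMP signalling genes, 25 were measured, with 17 higher, 3 lower and 5 not called, and a median log2 ratio of 0.62. With no filter on dim probes the median was 0.34 (19 higher, 4 lower), and with the scanner's own ratio 0.44 (13 higher, 4 lower). As reported, 37.5% of all genes were called higher and 30.9% lower. Esr1, Pde8b and Fshr passed the filter through the treated channel alone, so the filter favoured their rise. The growth hormone receptor Ghr was at 2.37, the estrogen receptor Esr1 at 2.28 (above background in 2 of 4 controls; 3.42 with the scanner's own ratio) and the AMH receptor Amhr2 at 2.12. Adcy6, an adenylyl cyclase, was at 1.43 and the phosphodiesterase Pde4b at 1.40. Pde8b, a phosphodiesterase of steroidogenic cells, was at least 3.49-fold higher (log2 means 8.78 against 6.98) and above background in 0 of 4 controls. The follicle-stimulating hormone receptor Fshr of Sertoli cells was at 0.75 (above background in 1 of 4 controls; 1.46 with the scanner's own ratio). The ACTH receptor Mc2r was at -0.08 (limma adjusted p = 0.3). With the scanner's own ratio Mc2r was at -0.24 (limma adjusted p = 0.0197), where the median of all genes was -0.12. Fshr and Mc2r were picked once their values were known. Prkar2a, a regulatory subunit of protein kinase A, and Akap1, its anchor on mitochondria, fell by 0.63 and 0.64. Nr3c2, the mineralocorticoid receptor, was at -0.22, a call lost without loess (-0.20, limma adjusted p = 0.246) and with no background correction (-0.17, limma adjusted p = 0.0662). It was also lost without replicate 2 or 3 in turn (-0.23 and -0.14).

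**Figure D4:**
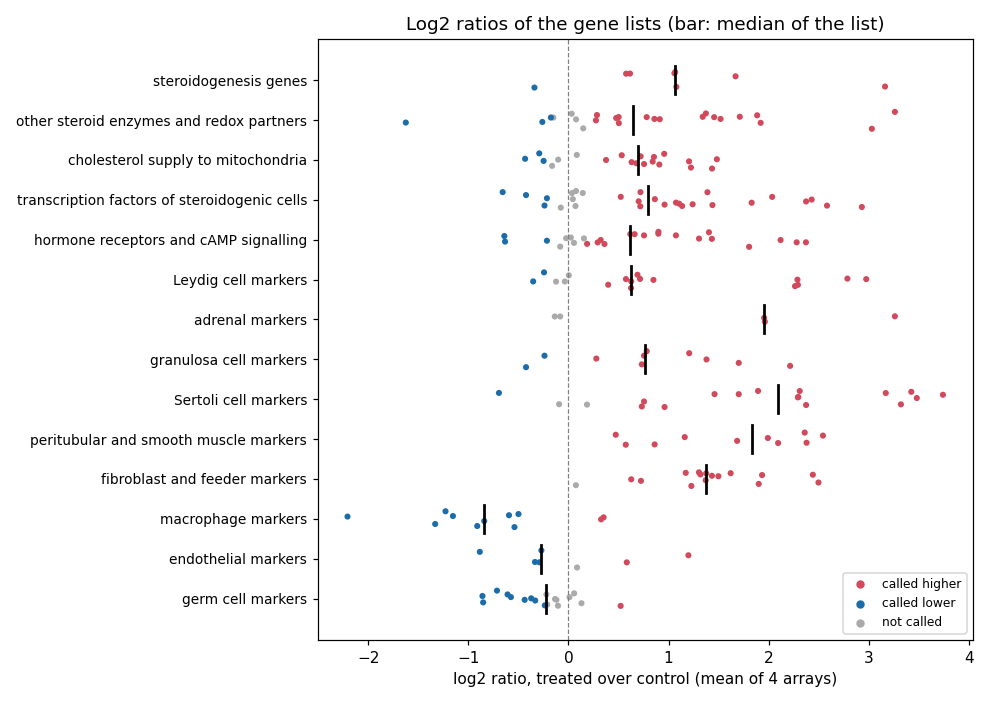
Log2 ratio of treated over control for each measured gene of the lists, 1 point per gene (mean of 4 arrays), coloured by the limma call; black bars are list medians, and some genes are in more than 1 list. The medians of the germ cell, endothelial and macrophage lists lie to the left of 0 and those of the other lists to its right.

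Most measured markers of Leydig, Sertoli and peritubular cells and of fibroblasts were higher in treated samples, as 7 of the 8 members were. Of all genes, 37.5% were called higher and 30.9% lower. Hhip of the Leydig list, and Fshr of the Sertoli and granulosa lists, passed the filter through the treated channel alone. Of 21 Leydig markers, 17 were measured, 12 higher and 2 lower (median 0.63), and their summed linear level was 138030 to 148510 in control and 524500 to 584900 in treated samples. Bright probes weigh most in such sums, here Gstm2 (log2 means 16.09 control, 18.35 treated) and Aldh1a1 (13.88 and 16.85). Aldh1a1, a retinaldehyde dehydrogenase, was at 2.97, angiotensinogen Agt at 2.78, Igf1 at 2.29 and Gstm2 at 2.26, while the Leydig kallikreins Klk1b24 and Klk1b27 and Cyp2a5 were above background in no sample. Of 20 Sertoli markers, 18 were measured, with 15 higher and 1 lower (median 2.09), and the sum went from 137060 to 150030 in controls to 542050 to 572970 in treated samples. Clu was the brightest Sertoli marker (log2 means 16.33 control, 18.23 treated) and was picked once its values were known. Sertoli cells also express Nr5a1. The peritubular list was higher for 10 of 10 genes (median 1.84; sums of 133800 to 144510 in controls against 537900 to 580210 in treated samples), and the fibroblast list for 15 of 16 (median 1.37; 752350 to 838930 against 1938000 to 2033500).

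For the other cell types, list medians lay on both sides of 0. Their counts stand beside the same shares over all genes, 37.5% higher and 30.9% lower, and no list was tested against these shares. Of 8 adrenal markers 5 were measured, 3 higher and 0 lower (median 1.95; control sums of 43951 to 53024 against treated sums of 51861 to 57514, the order kept for the lists that follow), among them Akr1b7, Mrap (1.96) and Ccn3 (1.95), with the defining enzymes Cyp11b2 and Cyp21a1 at background. Most of the adrenal sums came from Hoxb9 (log2 means 15.505 in controls, 15.368 in treated samples). Hoxb9 (-0.14, limma adjusted p = 0.173) and Mc2r were not called, and Hoxb9 was picked once its values were known. Granulosa markers were higher for 8 and lower for 2 of 10 measured (median 0.77; 48407 to 53797 against 133300 to 139630), and Esr2 was at background. Germ cell markers were higher for 1 and lower for 9 of 18 measured (median -0.23; 417660 to 454260 against 354680 to 380780). Macrophage markers were higher for 2 and lower for 9 of 11 (median -0.84; 125070 to 149750 against 53189 to 66364), and endothelial markers higher for 2 and lower for 4 of 7 (median -0.27; 13386 to 15778 against 11069 to 14237). Of the endothelial calls, the lower ones of Flt1, Pecam1 and Vwf were lost without loess (limma adjusted p = 0.213, 0.111 and 0.168) and the higher one of Emcn with the scanner's own ratio (limma adjusted p = 0.293). Without loess the lower Leydig calls of Crhr1 and Bmp2 (limma adjusted p = 0.0844 and 0.231) and the higher germ cell call of Stra8 (limma adjusted p = 0.0756) were lost as well, and with the scanner's own ratio the higher macrophage calls of Aif1 and Mrc1 (limma adjusted p = 0.0767 and 0.0635). The part of these cell types in the values of the steroidogenesis genes was not tested.

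**Figure D5:**
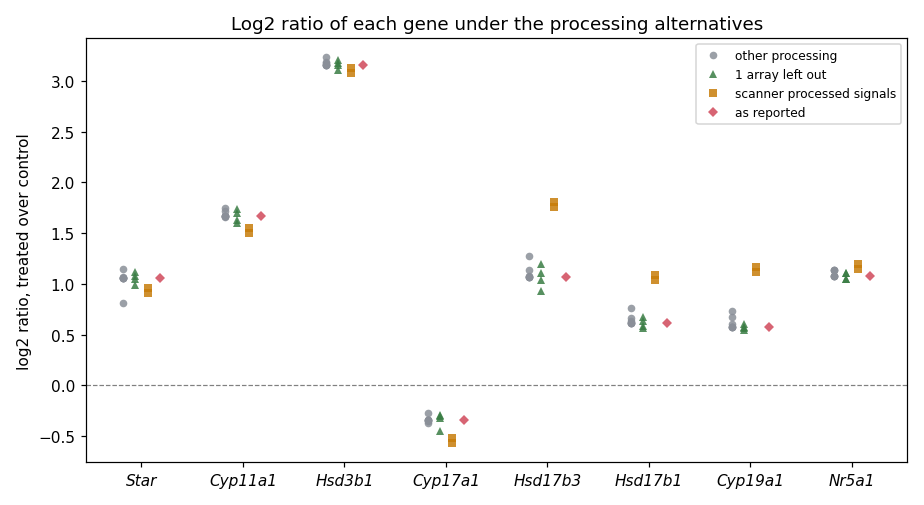
Log2 ratio of treated over control for each measured member as reported (red) and under the processing alternatives: 1 array left out (green), the scanner's processed signals (orange) and other processing (grey). All points of 7 genes lie above 0 and all of Cyp17a1 below it; the dim genes Hsd17b3, Hsd17b1 and Cyp19a1 are larger with the processed signals (1.81, 1.09 and 1.16 at most).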

How the data were processed

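RNA of 4 treated and 4 control cultures was read on 4 Agilent 2-colour arrays and scanned; the submitters' processing notes name Agilent Feature Extraction 10.5.1.1. The authors deposited each spot's signal as an intensity, and also a processed intensity that is background-subtracted and dye-normalized. Per the file headers the scanner ratio is on a log10 scale, red relative to green. The deposited series matrix holds log2 values, which equalled log2 of green over red processed signal within 0.001 for 100% of 40929 probes printed once, with no centring (column medians -0.26, 0.012, 0.11 and -0.058). Spot marks (0 or 1; other columns) were used as deposited.

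Mean signals were corrected by normexp (offset 50) and normalized by loess within arrays in limma 3.58.1 (R 4.3.3). Control spots had weight 0, and 141 to 171 marked spots per array were left out. Levels per channel used Aquantile scaling. Probes marked well above background on 3 or more arrays of 1 channel were kept (27730), and the brightest stood for a gene. Log2 ratios of treated over control were tested against 0 with lmFit and eBayes, two-sided, with Benjamini-Hochberg adjustment over 18454 genes, and called at an adjusted p under 0.05. Names were updated by RefSeq accession (25097 probes) or symbol and synonym (7973), and 8104 kept the file's name. The members and lists were chosen with earlier results of these data known. The genes named from a list were up to 6 called in each direction with the same sign on all 4 arrays, by size, of which the text gives the pathway lists and part of the marker lists; others are said to have been chosen later. A gene that this rule named is not reported here. The steps were tested on simulated data. The number of arrays limits the precision. Cyp11b1, Rhox8, Zbtb16 and Sohlh1 were listed and not analysed here.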

Additional observations from a re-analysis of the deposited data

How the results depend on the processing

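Leaving out 1 array at a time kept 7 members called higher and 1 called lower. Over these fits pathway genes called were 64 to 67 higher and 9 to 11 lower (66 and 13 with all arrays), and all genes called were 11443 to 12130. Pathway genes are those of the enzyme, cholesterol, transcription factor and receptor lists together. With all arrays, 37.5% of all genes were called higher and 30.9% lower. No direction of a member changed under any alternative run. Second brightest probes, which only Star and Cyp11a1 have among the members, left 2 members called higher and 0 lower, 30 pathway genes higher and 5 lower, and 4262 genes called in all, with fewer genes tested. Arrays median-centred without loess left 0 members lower and 5 pathway genes lower; the cause was not tested. Among genes of the lists, the sign turned for Por without loess (-0.097) and on second brightest probes for the endothelial genes Flt1 (0.41) and Vwf (0.0054). The share of called genes that were higher was 54.9%, and 41.6% with the scanner's own ratio, which moved the median of all genes to -0.12. Every reported ratio is already paired within its array, so no further replicate block was fitted. Signal near background limits Lhcgr, Hsd17b3, Hsd17b1 and Cyp19a1.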
